A study of Mus musculus with 6 samples.

Results

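The genes that mark parathyroid chief cells were examined in RNA-seq libraries of mouse thyroid glands. They are *Pth*, *Casr*, *Chga*, *Gcm2* and *Gata3*, 5 of the 21878 genes with deposited counts, and they were picked by symbol as the hormone, the calcium sensor, a secretory granule protein and the fate factors of the gland. The parathyroid glands lie against or inside the thyroid, so a dissected thyroid can carry them, and the levels of these genes were read as a measure of attached parathyroid tissue. In a bulk library, fewer parathyroid cells and less RNA per cell cannot be told apart.

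Thyroid glands came from female mice at 12 weeks, with 3 mice labelled *Thy-Tet1*+/+, which were wild-type littermate controls, and 3 labelled *Thy-Tet1*-/-. In *Thy-Tet1*-/- mice floxed *Tet1* alleles are deleted by a Cre that is active in thyroid follicular epithelial cells, so the deletion is not directed at parathyroid cells. No *Braf* allele was part of this cross. The sample titles read control for *Thy-Tet1*+/+ and treatment for *Thy-Tet1*-/-, and no treatment beyond the genotype is named. Levels are given as CPM, the read count of a gene per 1000000 counts of a library whose size was scaled by the trimmed mean of M-values (TMM). The deposited protocol speaks of retinas, whereas the stated tissue is thyroid, and the 7 follicular cell markers (among them *Tg*, *Slc5a5*, *Pax8*, *Foxe1*, *Duox2* and *Tshr*) summed to between 192913 and 315496 CPM in the 6 libraries. *Tet1*, the targeted gene, had 48, 71 and 62 counts in *Thy-Tet1*+/+ and 172, 162 and 241 counts in the libraries labelled *Thy-Tet1*-/-. Its level was thus higher in the latter (log2 fold change 1.28, SE 0.27, adjusted p = 0.101 in the edgeR quasi-likelihood test, after Benjamini and Hochberg). The paper reports weaker staining for the TET1 protein in thyroids of *Thy-Tet1*-/- mice. The counts are summed over the whole gene and the whole gland, and the exons and cells they came from were not tested. They cannot show whether the floxed part was deleted in follicular cells. The groups are therefore named by their labels throughout. Total counts ranged from 8867683 in *Thy-Tet1*+/+ replicate 1 to 19950898 in *Thy-Tet1*+/+ replicate 2, and a level of 3 counts lay between 0.152 and 0.356 CPM. Such floors and the intervals on counts given here cover counting error only.

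Chief cells release parathyroid hormone when blood calcium is low, and the hormone raises calcium through bone and kidney. Calcium is read by the calcium-sensing receptor on the cell surface, whose activation restrains secretion of the hormone. The identity of the gland depends on GCM2 and GATA3, transcription factors that act from the pharyngeal pouches onward.

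The 250 bases before the annotated start of *Pth* (GRCm38.p6, chr7:113388574-113388823, minus strand) and *Chga* (GRCm38.p6, chr12:102554691-102554940, plus strand) are shown because these genes gave by far the most counts among the 5. They are RefSeq reference sequence, read from 5′ to 3′ on the strand of the gene, and capitals mark the motif letters described after them.
Pth: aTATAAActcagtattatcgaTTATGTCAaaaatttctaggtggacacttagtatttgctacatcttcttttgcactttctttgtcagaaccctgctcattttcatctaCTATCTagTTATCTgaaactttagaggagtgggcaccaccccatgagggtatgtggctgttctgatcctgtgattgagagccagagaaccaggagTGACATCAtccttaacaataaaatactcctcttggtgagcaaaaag
Chga: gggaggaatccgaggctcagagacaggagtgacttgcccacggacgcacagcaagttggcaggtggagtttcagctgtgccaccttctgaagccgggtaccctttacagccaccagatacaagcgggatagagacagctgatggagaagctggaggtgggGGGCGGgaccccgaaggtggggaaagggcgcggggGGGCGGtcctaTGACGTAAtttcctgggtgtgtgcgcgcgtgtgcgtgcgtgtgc
The letters were searched on both strands of 300-base windows that run from 250 bases before to 50 bases after the start, and all 5 genes had a window. Overlapping motifs were counted separately. The relaxed cAMP response element TGACNTNA was chosen after the sequences had been seen. It occurred in *Pth* as TGACATCA, 46 bases before the start, and as TTATGTCA, 229 bases before it, and in *Chga* as TGACGTAA, 44 bases before the start. It was present in 14.1% of all 32851 windows, and the full element TGACGTCA, present in 1.55%, was in none of the 5. Letters of a GATA site (AGATAA and its variants with T as the first or G as the last letter, present in 26.5% of windows) were found in *Pth* at 141 and 133 bases before the start, and also in *Gcm2* and *Casr*. The TATA box TATAAA, present in 12.4% of windows, was found in *Pth* 249 bases before the start. The Sp1 letters GGGCGG, in 32.7% of windows, occurred in *Chga* at 90 and 55 bases and in *Gata3* at 188 and 176 bases. The GCM letters ATGCGGGT (0.207% of windows) were not in the 5 windows. GC content over the 250 bases was 39.2% in *Pth*, 48.8% in *Gcm2*, 48.8% in *Casr*, 62.4% in *Chga* and 70.0% in *Gata3*, against a median of 52.4% over all windows. The 250 bases of *Gcm2* and *Gata3* lie wholly inside a longer gene model, so their letters and GC content are not those of sequence upstream of the whole gene. The 250 bases of *Pth*, and by a few bases those of *Casr*, reach into a longer gene model. For *Pth* the RefSeq model extends to base 113388672 of chromosome 7, so the part of the printed sequence nearest the start, with TGACATCA, lies inside it. These matches are descriptions of the letters only.

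*Pth* (NCBI gene 19226, GRCm38 chr7:113385580-113388570, minus strand, 3 exons with 710 bases) encodes the hormone itself. Its counts were 11396, 1069 and 221992 in *Thy-Tet1*+/+ replicates 1 to 3, and 73342, 149184 and 99645 among the libraries labelled *Thy-Tet1*-/-. Scaled to library size, this was 1352, 57.2 and 12317 CPM against 3995, 8838 and 5063 CPM. The lowest and the highest library were both *Thy-Tet1*+/+, and the libraries labelled *Thy-Tet1*-/- lay between them. *Pth* was the most unequal of the 5 genes once *Thy-Tet1*+/+ replicate 2 was set aside, with a 9.11-fold range over the other 5 libraries. For *Gcm2*, *Casr*, *Chga* and *Gata3* the same range was between 2.30-fold and 2.92-fold.

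*Casr* (NCBI gene 12374, GRCm38 chr16:36493696-36562141, minus strand, 8 exons with 4718 bases) encodes the calcium-sensing receptor. Its counts were 2159, 594 and 9492 in *Thy-Tet1*+/+ and 3403, 6982 and 4327 among the libraries labelled *Thy-Tet1*-/-, or 256, 31.8 and 527 CPM against 185, 414 and 220 CPM. *Thy-Tet1*+/+ replicate 2 was again lowest and replicate 3 highest, but the low value was 12.4% of the median of the other 5 libraries. For the other members it was between 0.403% and 2.48%. *Casr* was therefore the member least reduced in that library.

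*Chga* (NCBI gene 12652, GRCm38 chr12:102554969-102565028, plus strand, 8 exons with 2756 bases) encodes chromogranin A, a protein of dense-core secretory granules that chief cells share with other endocrine cells, among them the calcitonin-producing C cells of the thyroid. It had 53167, 1918 and 331989 counts in *Thy-Tet1*+/+ and 117329, 207991 and 129228 counts in the libraries labelled *Thy-Tet1*-/-. The levels were 6308, 103 and 18420 CPM against 6392, 12322 and 6566 CPM. *Thy-Tet1*+/+ replicate 1 and the libraries labelled *Thy-Tet1*-/- replicates 1 and 3 were nearly level for *Chga*, whereas *Pth* in the first of these was below the other 2.

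*Gcm2* (NCBI gene 107889, GRCm38 chr13:41101427-41111035, minus strand, 5 exons with 3304 bases) encodes the transcription factor on which parathyroid development depends. It had 277, 4 and 1361 counts in *Thy-Tet1*+/+ and 975, 1025 and 689 counts in the libraries labelled *Thy-Tet1*-/-, or 32.9, 0.214 and 75.5 CPM against 53.1, 60.7 and 35.0 CPM. The 4 counts in *Thy-Tet1*+/+ replicate 2 correspond to an exact 95% Poisson interval of 0.0583 to 0.548 CPM. *Gcm2* was thus close to the floor in 1 library and well above it in the other 5, which had a median 248-fold higher.

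*Gata3* (NCBI gene 14462, GRCm38 chr2:9857078-9890034, minus strand, 10 exons with 3978 bases) encodes a zinc finger transcription factor of parathyroid and also of T cells and other tissues. It had 251, 17 and 1053 counts in *Thy-Tet1*+/+ and 386, 813 and 722 counts in the libraries labelled *Thy-Tet1*-/-, or 29.8, 0.909 and 58.4 CPM against 21.0, 48.2 and 36.7 CPM. The extremes were the same 2 *Thy-Tet1*+/+ libraries. Its exons overlap an antisense gene, *Gm13256*, by 155 bases and *9230102O04Rik*, on the same strand, by 77 bases, neither of which is counted separately. The sources do not say if reads were assigned by strand, which leaves a part of its counts uncertain.

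**Figure D1:**
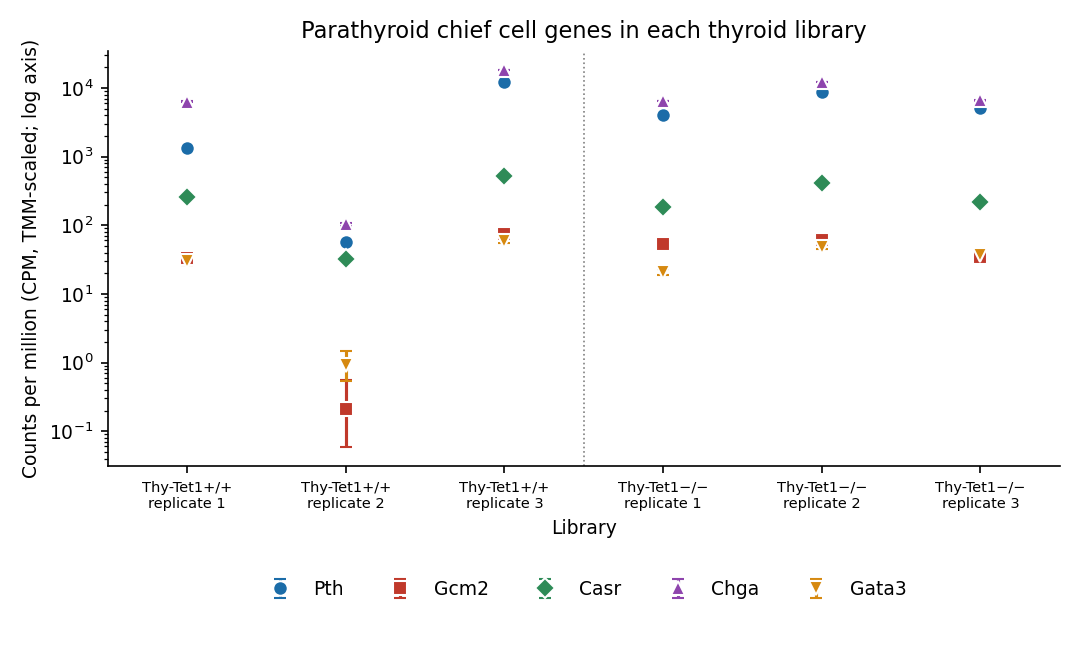
Levels of the 5 parathyroid genes (CPM on a log axis) in each of the 6 libraries, with bars for the exact 95% Poisson interval of the count, which is narrower than the symbol except at low counts. Thy-Tet1+/+ replicate 2 is lowest and Thy-Tet1+/+ replicate 3 highest for all 5 genes, and Gcm2 is at 0.214 CPM in the former.

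Together the 5 genes took 0.758%, 0.0181% and 2.90% of all counts in *Thy-Tet1*+/+ replicates 1 to 3, and 1.14%, 2.20% and 1.33% among the libraries labelled *Thy-Tet1*-/- replicates 1 to 3. The exact 95% binomial interval was 0.0175% to 0.0187% in *Thy-Tet1*+/+ replicate 2 and 2.90% to 2.91% in replicate 3, so counting error was small against the differences between mice. All 5 genes were lowest in *Thy-Tet1*+/+ replicate 2 and highest in replicate 3, an order that 337 of the 14143 tested genes (2.38%) showed. In *Thy-Tet1*+/+ replicate 2, 4 of the 5 genes were below 10% of the lowest of the other libraries, against 56 tested genes in all (0.396%). These genes were picked because they mark 1 cell type, so their common order is a description.

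Per kilobase of exon, which allows genes to be compared, the median level over the 6 libraries was 6379 CPM per kb for *Pth*, 2351 for *Chga*, 50.4 for *Casr*, 13.3 for *Gcm2* and 8.35 for *Gata3*. This order held within 4 of the 6 libraries. In *Thy-Tet1*+/+ replicate 1, *Chga* (2289 CPM per kb) was above *Pth* (1904 CPM per kb). In *Thy-Tet1*+/+ replicate 2, *Gata3* (0.229 CPM per kb) was above *Gcm2* (0.0647 CPM per kb). *Pth* and *Chga*, and likewise *Gcm2* and *Gata3*, were therefore neighbours whose order changed between libraries, whereas *Casr* was below *Chga* and above *Gcm2* in each library.

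Ratios between the genes were formed within each library. They would not depend on how much of the library came from parathyroid tissue if all counts of both genes came from chief cells, which was not tested and which weighs most where parathyroid counts are few, as in *Thy-Tet1*+/+ replicate 2. *Casr* had 42.8 counts per 1000 *Pth* counts in *Thy-Tet1*+/+ replicate 3 and 46.4, 46.8 and 43.4 among the libraries labelled *Thy-Tet1*-/-. These 4 libraries lay within 1.09-fold of each other, with *Pth* levels between 3995 and 12317 CPM. They were grouped after their *Casr* ratios had been seen, and they spanned 1.23-fold for *Chga*, 1.53-fold for *Gata3* and 2.17-fold for *Gcm2* relative to *Pth*. In the other 2 libraries the ratio was 189 (*Thy-Tet1*+/+ replicate 1) and 556 (replicate 2) per 1000 *Pth* counts, 4.22-fold and 12.4-fold the median of the 4.

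*Thy-Tet1*+/+ replicate 1 was low in *Pth* relative to every other member. *Chga* had 4665 counts per 1000 *Pth* counts there, against 1794 and 1496 in *Thy-Tet1*+/+ replicates 2 and 3 and 1600, 1394 and 1297 among the libraries labelled *Thy-Tet1*-/-. *Gcm2* had 24.3, 3.74 and 6.13 counts per 1000 *Pth* counts in *Thy-Tet1*+/+ and 13.3, 6.87 and 6.91 among the libraries labelled *Thy-Tet1*-/-. *Gata3* had 22.0, 15.9 and 4.74 against 5.26, 5.45 and 7.25. In *Thy-Tet1*+/+ replicate 1 these ratios were 3.23-fold, 3.53-fold and 4.11-fold the median of the same 4 libraries for *Chga*, *Gcm2* and *Gata3*. With *Chga* in place of *Pth* as the reference, an alternative added after the data had been seen, they were 1.02-fold for *Gcm2*, 1.30-fold for *Casr* and 1.31-fold for *Gata3*. This library was also the shallowest and carried thymus and skeletal muscle transcripts, whose values are given further on, and their part in the ratio was not tested.

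Neither reference gave a steady *Casr* value in *Thy-Tet1*+/+ replicate 2. There *Casr* had 310 counts per 1000 *Chga* counts, against 40.6 and 28.6 in *Thy-Tet1*+/+ replicates 1 and 3 and 29.0, 33.6 and 33.5 among the libraries labelled *Thy-Tet1*-/-. Without that library the *Casr* to *Chga* ratio spanned 1.42-fold. *Gata3* had 4.72, 8.86 and 3.17 counts per 1000 *Chga* counts in *Thy-Tet1*+/+ and 3.29, 3.91 and 5.59 among the libraries labelled *Thy-Tet1*-/-. After *Thy-Tet1*+/+ replicate 2, the highest values were in the 2 libraries with the most thymus and T cell transcripts (summed marker levels of 134 and 608 CPM, against 4.50 to 10.7 CPM in the other 4), and the part of those cells in *Gata3* was not tested. The C cell hormone gene *Calca* was not low in *Thy-Tet1*+/+ replicate 2, with 4612 CPM. It had 1902 and 2439 CPM in *Thy-Tet1*+/+ replicates 1 and 3 and 3653 to 4659 CPM in the libraries labelled *Thy-Tet1*-/-. The part of other cells in the *Casr* counts that remained in *Thy-Tet1*+/+ replicate 2 was not tested.

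**Figure D2:**
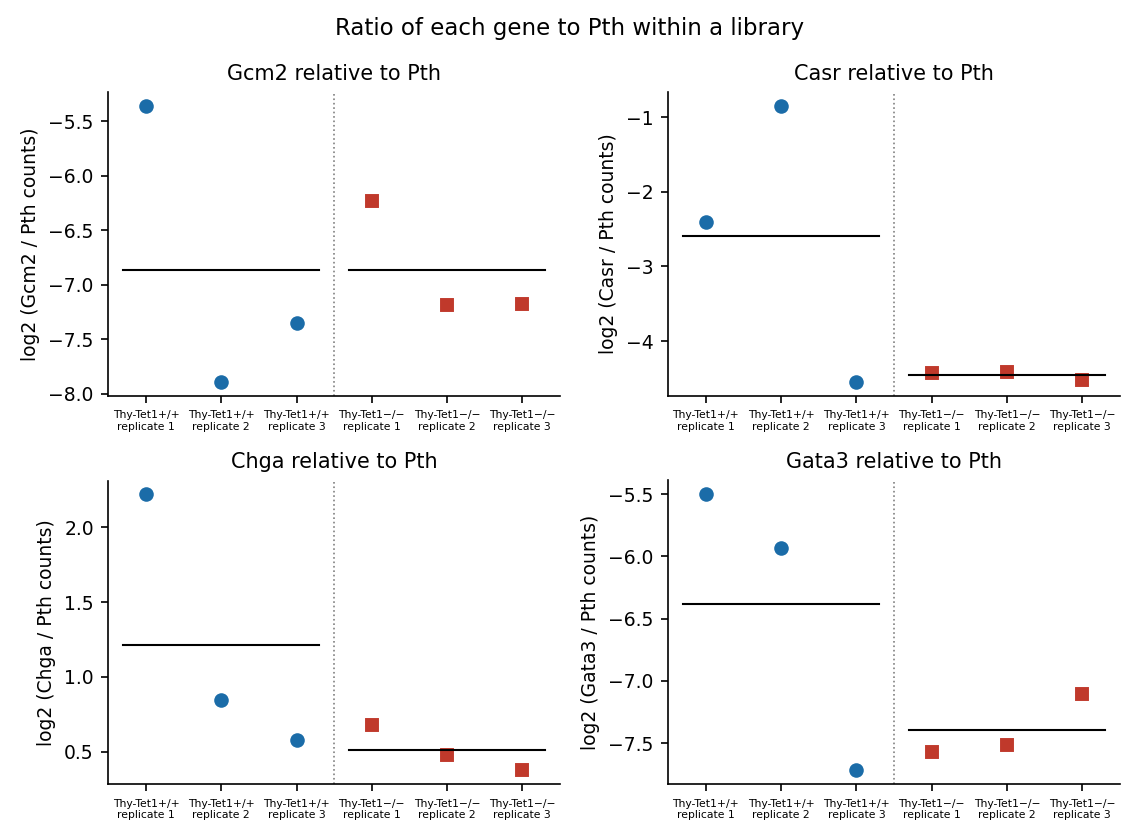
Log2 of the count of Gcm2, Casr, Chga or Gata3 over the count of Pth in each library, with 0.5 added to each count (circles, Thy-Tet1+/+; squares, libraries labelled Thy-Tet1-/-; horizontal lines, group means of 3 libraries). Casr to Pth is nearly level in the 4 libraries with 42.8 to 46.8 Casr counts per 1000 Pth counts, and all 4 ratios are highest or next to highest in Thy-Tet1+/+ replicate 1.

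The groups did not differ in these ratios beyond their spread. Mean log2 ratios to *Pth* were -6.87 ± 1.33 (SD, n = 3) against -6.86 ± 0.55 for *Gcm2* and -2.60 ± 1.86 against -4.46 ± 0.06 for *Casr*. They were 1.22 ± 0.88 against 0.51 ± 0.15 for *Chga* and -6.38 ± 1.18 against -7.40 ± 0.25 for *Gata3*. The groups overlapped for all 4 ratios, with two-sided exact permutation p of 1.0, 0.4, 0.2 and 0.4 in the same order (adjusted over the 4 ratios 1.0, 0.533, 0.533 and 0.533). With 3 libraries against 3 the smallest p such a test can give is 0.1. The SD in *Thy-Tet1*+/+ was the larger one for each ratio.

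Levels of the 5 genes were then compared between the genotypes in a fit over all 14143 genes with enough counts, a filter that all 5 passed. None of the 5 was called at an adjusted p under 0.05 by the edgeR quasi-likelihood test (Benjamini-Hochberg), where 0.113% of all tested genes were called. None met the limits of the study (a change of more than 1.5-fold up or down, at an unadjusted p under 0.05), which 9.2% of tested genes met, and none had an unadjusted p under 0.05. DESeq2 and limma-voom called 0 of the 5 as well, against 8.43% and 0.0919% of all genes entered. None had groups that did not overlap, against 26.8% of tested genes. The median log2 fold change of the 5 was 0.25, and it was 0.00 over all tested genes.

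For *Pth* the mean was 4575 ± 6736 CPM in *Thy-Tet1*+/+ and 5966 ± 2545 CPM in the libraries labelled *Thy-Tet1*-/- (SD, n = 3 each), a log2 fold change of 0.38 (SE 1.40, adjusted p = 0.915, edgeR). *Casr* had 272 ± 248 and 273 ± 123 CPM, with a log2 fold change of 0.01 (SE 0.85, adjusted p = 0.997, edgeR). *Chga* had 8277 ± 9316 and 8427 ± 3375 CPM, a log2 fold change of 0.03 (SE 1.29, adjusted p = 0.994, edgeR). *Gcm2* had 36.2 ± 37.8 and 49.6 ± 13.2 CPM and *Gata3* had 29.7 ± 28.8 and 35.3 ± 13.6 CPM, with log2 fold changes of 0.45 (SE 1.21) and 0.25 (SE 1.05) and adjusted p of 0.883 and 0.926 from edgeR. The standard errors were large, so these fits could not tell a rise or a fall of several-fold from no difference. Exact two-sided permutation tests of the log2 levels gave p of 0.4 for *Pth*, 0.9 for *Casr*, 0.7 for *Chga*, 0.6 for *Gcm2* and 0.7 for *Gata3*.

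The direction of these fold changes turned with single libraries. Without *Thy-Tet1*+/+ replicate 2 the log2 fold changes were -0.20 for *Pth*, -0.52 for *Casr*, -0.56 for *Chga*, -0.14 for *Gcm2* and -0.33 for *Gata3*, and without *Thy-Tet1*+/+ replicate 3 they were 3.08, 0.93, 1.40, 1.63 and 1.24. Under limma-voom, which averages log2 levels, they were 2.50, 0.65, 1.77, 2.97 and 1.80 in the same order. Over all alternatives the adjusted p stayed between 0.309 and 0.998. The spread within *Thy-Tet1*+/+ was larger than within the libraries labelled *Thy-Tet1*-/- for each gene, with coefficients of variation of 91.3% to 147% against 26.6% to 45.1%.

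Other factors of parathyroid fate were looked up next, in a list of 11 genes of pouch patterning and gland identity. Of the 8 tested, all 8 were lowest in *Thy-Tet1*+/+ replicate 2 and 4 were highest in replicate 3, where 17.0% and 17.2% of all tested genes were so placed. The list was chosen with earlier results of these data known, so this order is a description. *Pax1*, a pouch factor shared with thymic epithelium, had 9.85, 0.428 and 15.6 CPM in *Thy-Tet1*+/+ and 7.90, 15.8 and 24.9 CPM in the libraries labelled *Thy-Tet1*-/-, and its highest library was the one with the highest thymus markers (608 CPM), whose part was not tested. *Tbx1*, a T-box factor of the pharyngeal region, had 4.51, 1.02 and 21.6 CPM against 6.32, 13.9 and 8.64 CPM. *Pax9* had 20.3, 5.24 and 45.0 CPM against 26.4, 49.6 and 36.8 CPM.

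None of these 8 factors was called at an adjusted p under 0.05, where 0.113% of all tested genes were called. At the limits of the study, which 9.2% of all tested genes met in either direction, 1 of the 8 was higher. This was *Hoxa3*, needed for the pouch organs, with 3.08, 2.03 and 3.50 CPM in *Thy-Tet1*+/+ and 8.44, 3.67 and 5.39 CPM in the libraries labelled *Thy-Tet1*-/- (log2 fold change 1.03, SE 0.40, adjusted p = 0.239, edgeR). The groups did not overlap for *Hoxa3*, as for 26.8% of all tested genes, and its library order was not that of the 5 members. *Eya1* (log2 fold change 0.19) and *Six4* (0.67) did not pass the test. *Foxi3* and *Sox3* had no count in any library, and *Shh* was too low to test. The median log2 fold change of the 8 was 0.49.

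Genes of calcium sensing, FGF23 and vitamin D response were a list of 10, of which 8 were tested and none was called or met the limits. *Kl*, which encodes the co-receptor through which FGF23 acts on the gland, had 130, 3.32 and 447 CPM in *Thy-Tet1*+/+ and 176, 367 and 174 CPM in the libraries labelled *Thy-Tet1*-/-. *Kl* thus followed the members, with 1.88% of the median of the other libraries in *Thy-Tet1*+/+ replicate 2. *Vdr*, the vitamin D receptor that restrains *Pth* transcription, had 80.4, 28.5 and 158 CPM against 81.7, 132 and 91.0 CPM and had the same lowest and highest library. *Gna11* and *Gnaq*, G proteins downstream of the receptor, were at 66.6 to 110 and 81.9 to 135 CPM and showed no such drop, with 112% and 137% in *Thy-Tet1*+/+ replicate 2. *Ap2s1* (114%), *Rxra* (102%), *Fgfr1* (91.4%) and *Cyp27b1* (97.2%) also stayed near the other libraries there. *Gprc6a* had no count, and *Cyp24a1* was too low to test.

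The other ligands and receptors of the family were scarce. *Pth1r*, the receptor for parathyroid hormone, had 5.81, 2.14 and 2.27 CPM in *Thy-Tet1*+/+ and 4.30, 4.27 and 2.85 CPM in the libraries labelled *Thy-Tet1*-/-. *Pthlh*, which encodes the related peptide, was at 0.654 to 0.949 CPM in all libraries. Of the 4 genes, these 2 were tested and neither was called, and *Pth2* had no count. *Pth2r* was at most 0.111 CPM, under the floor.

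Of 12 genes of granules and prohormone processing, 11 were tested and none of the 11 was lowest in *Thy-Tet1*+/+ replicate 2. *Chgb* and *Scg2*, granins like *Chga*, were at 137% and 135% of the median of the other libraries there, in contrast to 1.56% for *Chga*. *Scg2* had 485, 657 and 322 CPM in *Thy-Tet1*+/+ and 687, 690 and 446 CPM in the libraries labelled *Thy-Tet1*-/-. The prohormone convertases *Furin* and *Pcsk7* stood at 107% and 89.5%, and *Pcsk1* and *Pcsk2* at 89.8% and 90.5%. *Pam*, which amidates peptides such as calcitonin, was the 1 gene of the 11 to meet the limits of the study, against 9.2% of all tested genes. It was lower (665, 371 and 319 against 301, 296 and 243 CPM, log2 fold change -0.69, SE 0.29, adjusted p = 0.258, edgeR), and none of the list was called at an adjusted p under 0.05.

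Of 4 genes tied to parathyroid growth, 1 was higher at the limits of the study, which 9.2% of all tested genes met in either direction. This was *Cdkn1b*, a cyclin-dependent kinase inhibitor, with 77.5, 79.5 and 80.2 CPM in *Thy-Tet1*+/+ and 118, 119 and 145 CPM in the libraries labelled *Thy-Tet1*-/- (log2 fold change 0.69, SE 0.12, adjusted p = 0.0805, edgeR). *Men1*, *Cdc73* and *Ccnd1* did not pass the test, with log2 fold changes of -0.09, -0.18 and -0.43. All 4 are expressed in many cell types, and they were at 67.2% to 104% of the median of the other libraries in *Thy-Tet1*+/+ replicate 2. That median includes the libraries labelled *Thy-Tet1*-/-, and *Cdkn1b*, at 67.2%, was level with the other *Thy-Tet1*+/+ libraries.

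**Figure D3:**
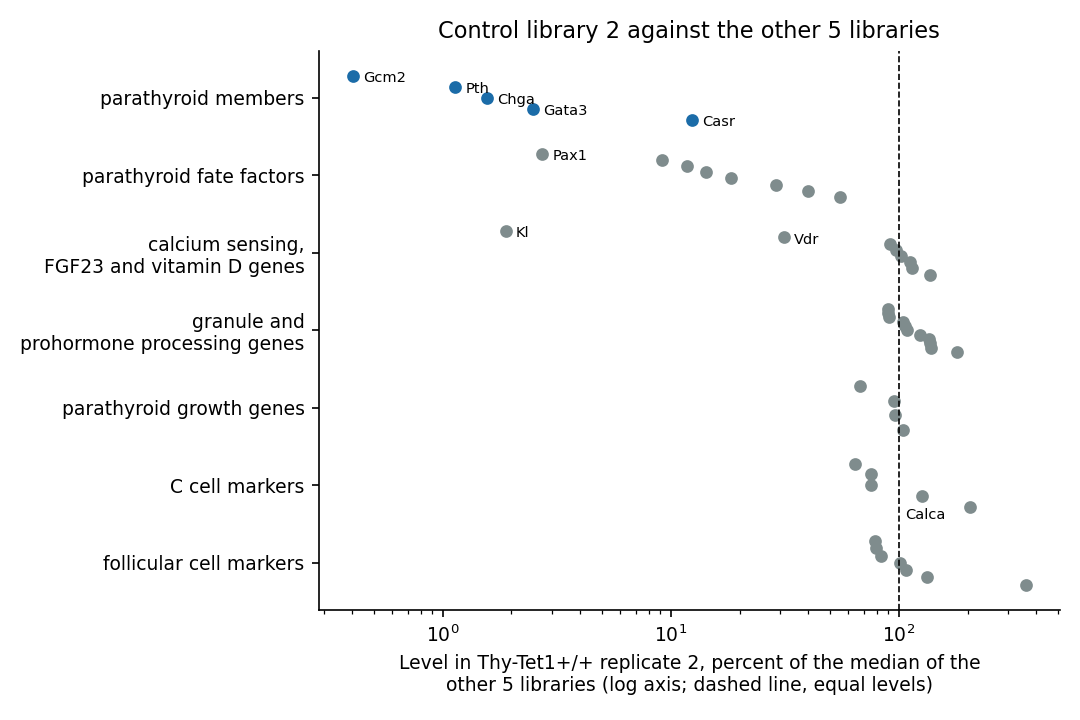
Level of each tested gene in Thy-Tet1+/+ replicate 2 as a percentage of its median in the other 5 libraries (log axis, dashed line at equal levels), by gene list, with selected genes named. The 5 parathyroid genes lie between 0.403% and 12.4%, Kl lies at 1.88%, and the granule, growth, C cell and follicular genes lie near or above the dashed line. The median includes the libraries labelled Thy-Tet1-/-, so a difference between the groups also moves a gene away from the line.

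The genes whose pattern was most like that of *Pth* were sought among all tested genes. Log2 levels were centred on their mean over the 6 libraries, and genes were ranked by the root mean square difference from *Pth* on that log2 scale. The 10 closest non-members were *Spink8* (0.394), *Sycp2l* (0.429), *Mcoln3* (0.498), *Kl* (0.509), *Rasal1* (0.578), *Aldh1a3* (0.661), *Lrrn1* (0.671), *Esrrg* (0.691), *Cdh20* (0.692) and *Rhcg* (0.714). The median of all tested genes was 2.61. Among the members, *Chga* (0.625) ranked 6, *Gcm2* (0.750) 13, *Gata3* (0.885) 16 and *Casr* (1.42) 57. The ranking is over 6 libraries and rests largely on *Thy-Tet1*+/+ replicate 2, since without that library only 1 of the 10 was again among the 10 closest.

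*Spink8*, a Kazal-type protease inhibitor gene, had 6.17, 0.321 and 43.4 CPM in *Thy-Tet1*+/+ and 17.9, 45.8 and 16.9 CPM in the libraries labelled *Thy-Tet1*-/-. *Sycp2l*, related to a synaptonemal complex gene, had 11.9, 0.321 and 49.0 CPM against 36.4, 45.9 and 31.4 CPM. Both shared with *Pth* the low level in *Thy-Tet1*+/+ replicate 1. *Aldh1a3*, which encodes an enzyme of retinoic acid synthesis, had 32.3, 0.909 and 100 CPM against 36.2, 56.3 and 54.5 CPM. *Rhcg*, an ammonium transporter gene, had 67.2, 0.481 and 157 CPM against 72.9, 143 and 80.6 CPM. *Mcoln3*, a cation channel gene, had 0 counts in *Thy-Tet1*+/+ replicate 2, where the median of the other libraries (10.4 CPM) was at least 64.5-fold higher than the floor of 3 counts in that library. *Cdh20* also had 0 counts there and *Esrrg* had 3. The 10 genes were chosen for their likeness to *Pth* over the same 6 libraries, so their group differences are no separate result.

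**Figure D4:**
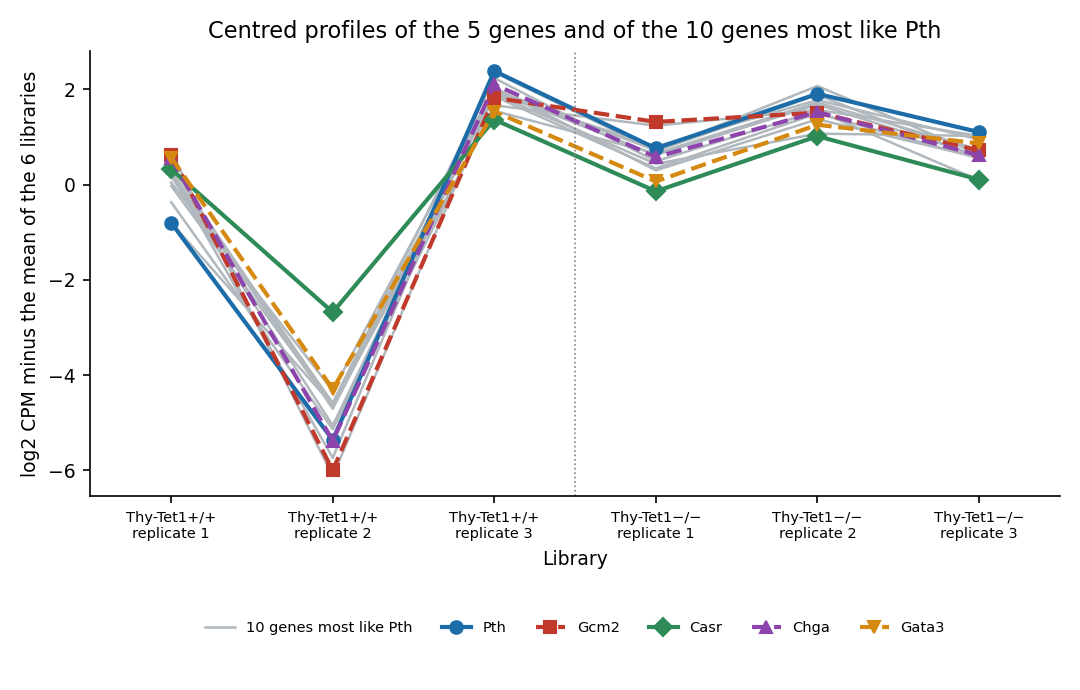
Log2 CPM of the 5 parathyroid genes (coloured) and of the 10 non-member genes most like Pth (grey), each minus its mean over the 6 libraries. All lines drop in Thy-Tet1+/+ replicate 2 and peak or lie near their peak in Thy-Tet1+/+ replicate 3, with Casr the least reduced in the former and Pth lower than the other 4 members in Thy-Tet1+/+ replicate 1.

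Markers of other tissues that can be dissected with the gland had other patterns over the libraries. The 5 skeletal muscle markers summed to 4932, 573 and 2768 CPM in *Thy-Tet1*+/+ and 74.1, 5240 and 13.5 CPM in the libraries labelled *Thy-Tet1*-/-. The 10 thymus and T cell markers summed to 134, 10.7 and 8.60 CPM against 5.23, 4.50 and 608 CPM, so they were highest in the library labelled *Thy-Tet1*-/- replicate 3 and in *Thy-Tet1*+/+ replicate 1. The 4 adipocyte markers summed to 433, 204 and 144 CPM against 1282, 621 and 318 CPM, and the 5 stratified epithelium markers to 66.1, 90.7 and 32.2 CPM against 37.8, 54.7 and 105 CPM. None of these sums was lowest in *Thy-Tet1*+/+ replicate 2. *Fabp4*, a fatty acid binding protein gene of adipocytes, was the only gene of these 4 lists to meet the limits of the study (log2 fold change 1.55, SE 0.50, adjusted p = 0.179, edgeR), which 9.2% of all tested genes met. Sympathetic and chromaffin markers, another possible source of *Chga*, summed to at most 1.42 CPM in any library, with *Th* and *Dbh* at or near 0.

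The 5 C cell markers summed to 2031, 4756 and 2561 CPM in *Thy-Tet1*+/+ and 4785, 4722 and 3724 CPM in the libraries labelled *Thy-Tet1*-/-. In *Thy-Tet1*+/+ replicate 2, where *Chga* had 103 CPM, their sum was thus the next to highest. *Ret*, a receptor tyrosine kinase of C cells, was the 1 marker of these 5 to meet the limits of the study, against 9.2% of all tested genes. It was lower (log2 fold change -1.12, SE 0.22, adjusted p = 0.0965, edgeR). At an adjusted p under 0.05, edgeR called 0.113% of all tested genes and none of the C cell, thymus, sympathetic, stratified epithelium, muscle or adipocyte markers. It called 1 of the 7 follicular cell markers, *Tshr* (log2 fold change -2.16, SE 0.18, adjusted p = 0.0466).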

How the data were processed

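The 6 libraries came from thyroids of female mice aged 12 weeks, 3 in each labelled genotype. For 21878 genes, of which 4100 had no count, the authors deposited the unnormalised read counts. The genome build in the submitters' processing notes was mm10, and the aligner and counting program are not given in the sources used here. Beside the 6 count columns, 0 columns held values of single libraries, and none held fold changes or p-values. Symbols of 27 genes that had turned into dates were restored by NCBI identifier. Libraries were grouped by their labels, and replicates of a group differed far beyond sampling noise, so none was counted as a duplicate.

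Counts were fitted with edgeR 4.0.16 in R 4.3.3, after filterByExpr (14143 genes kept) and TMM scaling, by the quasi-likelihood test with Benjamini-Hochberg adjustment over all genes kept. The biological coefficient of variation was 0.327, and both the spread between mice and depth (8867683 to 19950898 counts) limit the comparisons. Log2 CPM used a prior count of 2. Exact permutation tests were two-sided (scipy 1.17.1). Exon lengths and overlaps came from GENCODE M21 (GRCm38), and promoter windows from RefSeq (GRCm38.p6). The code was tested on simulated data.

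The members and lists were chosen with earlier results of these data known. Named genes were the members, the genes of the lists, *Tet1* and the 10 tested genes most like *Pth*, and some of the list genes are not reported here by name. Alternatives were RLE size factors, total counts, upper-quartile factors, DESeq2 1.42.0, limma-voom (limma 3.58.1), other count filters, other prior or added counts, the replicate block, each library left out, the profile of *Gcm2*, and, added after the data had been seen, a robust fit and *Chga* as the reference of the ratios.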

Additional observations from a re-analysis of the deposited data

How the results depend on the processing

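No alternative called any of the 5 genes at an adjusted p under 0.05. Signs turned without *Thy-Tet1*+/+ replicate 2 for all 5 (-0.20 *Pth*, -0.14 *Gcm2*, -0.52 *Casr*, -0.56 *Chga*, -0.33 *Gata3*), without *Thy-Tet1*+/+ replicate 1 for *Pth* (-0.06), *Casr* (-0.04) and *Chga* (-0.14), and without the library labelled *Thy-Tet1*-/- replicate 2 for *Pth* (-0.02), *Casr* (-0.42), *Chga* (-0.35) and *Gata3* (-0.04). With each library left out in turn, the log2 ratio difference ran from -0.51 to 0.76 for *Gcm2*, from -2.83 (without *Thy-Tet1*+/+ replicate 3) to -0.98 (without replicate 2) for *Casr*, where it was -1.86 with all libraries, from -1.02 (without replicate 3) to -0.20 (without replicate 1) for *Chga* (-0.70), and from -1.68 (without replicate 3) to -0.57 (without replicate 1) for *Gata3* (-1.01). Likewise, the log2 fold change ran from -0.20 to 3.08 for *Pth*, -0.14 to 1.63 for *Gcm2*, -0.52 to 0.93 for *Casr*, -0.56 to 1.40 for *Chga* and -0.33 to 1.24 for *Gata3*. The difference in the *Gcm2* to *Pth* ratio, 0.00 on the log2 scale, became -0.13 with 2 added to each count, -0.51 and -0.24 without *Thy-Tet1*+/+ replicate 2 or 3, and -0.31 without the library labelled *Thy-Tet1*-/- replicate 1. Scaling by total counts moved the median of all genes by 0.19 and gave *Pth* 0.57. *Gcm2* had no value with at least 10 counts in every library. With a prior count of 0.5, 5 of the 10 genes most like *Pth* were the same, and without *Thy-Tet1*+/+ replicate 2 it was 1. Over all tested genes, 16 were called at an adjusted p under 0.05 by edgeR, against 1192 by DESeq2, 13 by limma-voom, 25 with at least 10 counts in every library, 8 with total counts, 5 with upper-quartile factors, 0 with the replicate block (1900 at an unadjusted p under 0.05) and 0 to 1 with a library left out. Except for libraries left out, the cause of these shifts was not tested.

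Same-numbered mice did not deviate together (correlations of -0.167, -0.372 and -0.193), so the main comparison did not use the numbers as a pairing. These correlations, of deviations from the mean of each group, cannot show whether same-numbered mice were bred or handled together. With the replicate block, the log2 fold changes were 1.97 for *Pth*, 1.38 for *Gcm2*, 0.41 for *Casr*, 0.89 for *Chga* and 0.83 for *Gata3* (adjusted p from 0.706 to 0.904, edgeR), with 0 of 5 called. For the ratios to *Pth*, the replicate block leaves the mean differences unchanged by arithmetic, so only the p could move. The sign-flip test gave p of 0.5 for *Casr*, 0.25 for *Chga* and 0.5 for *Gata3*, and a larger p for *Gcm2*. With 3 pairs the smallest two-sided p of such a test is 0.25, so it could not have called any ratio.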
